A study of Mus musculus with 17 samples.

Results

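The genes described here are 9 markers of adipose progenitors and fibroblasts: Pdgfra, Pdgfrb, Dpp4, Pi16, Icam1, F3, Cd34, Ly6a and Fap. They were chosen by name, and 8 of the 9 could be read from the array, out of 22180 genes measured. Ly6a, which encodes the progenitor surface protein Sca-1, was not analysed here, since no probe set carried its symbol, alone or with another gene's. Each of the 8 was read by 1 probe set with that gene's symbol only.

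RNA came from the adipose tissue that surrounds the prostate (periprostatic fat) in male C57BL/6J mice, and every mouse had its own Affymetrix Mouse Gene 2.0 ST array. The calorie-restricted mice (HFD_CR, n = 5) ate a 60 kcal% fat diet freely for 12 weeks and were then given, for 7 weeks, 70% of the daily intake of the unrestricted high-fat mice. The high-fat mice (HFD, n = 6) ate the 60 kcal% fat diet freely, and the low-fat mice (LFD, n = 6) ate a 10 kcal% fat diet freely throughout. Feeding began at 6 weeks of age and all mice were 25 weeks old at harvest, so that all groups share age, sex, strain and depot, and the restricted mice carry the same earlier exposure to fat as the HFD mice. Whole tissue was frozen without sorting, so a lower signal from fewer cells of a type and one from less RNA per cell cannot be told apart.

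White fat holds a stroma of fibroblast-like cells from which new adipocytes arise. Most of them carry the platelet-derived growth factor (PDGF) receptor alpha, encoded by Pdgfra, together with Cd34 and Ly6a, whereas Pdgfrb also marks mural cells of vessels. In mouse subcutaneous fat, cells with Dpp4 and Pi16 lie in the tissue interstitium and act as multipotent progenitors, cells with Icam1 are committed preadipocytes, and cells with CD142, the tissue factor encoded by F3, have been described as restraining adipocyte formation. Fap, a surface serine protease, is known from activated fibroblasts in scars and tumours. Several of these genes are used by other cells as well: Icam1 by endothelium and leukocytes, F3 by perivascular cells, Cd34 by endothelium and Dpp4 by T cells and mesothelium.

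The promoters of Icam1 and F3 are shown because Icam1 fell and F3 rose in HFD_CR against HFD mice. Pdgfrb and Fap fell there too, but no promoter was matched for them. RefSeq promoters of assembly GRCm38.p6, each running from 250 bases before to 50 bases after the gene's start, were matched for 6 of the 9 genes. Capitals mark matches on either strand to a nuclear factor kappa B (NF-kB)-type motif, searched as GGANNTTCC, and to an AP-1-type motif, searched as TGANTCA. The Icam1 promoter lies on the plus strand at chr9:21015690-21015989 and the F3 promoter on the plus strand at chr3:121723287-121723586.
Icam1: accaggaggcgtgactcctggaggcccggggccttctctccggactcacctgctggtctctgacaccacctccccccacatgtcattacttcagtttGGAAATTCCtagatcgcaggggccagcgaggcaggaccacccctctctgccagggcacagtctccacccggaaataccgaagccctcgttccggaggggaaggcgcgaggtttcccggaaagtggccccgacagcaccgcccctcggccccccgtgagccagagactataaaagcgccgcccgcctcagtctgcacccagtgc
F3: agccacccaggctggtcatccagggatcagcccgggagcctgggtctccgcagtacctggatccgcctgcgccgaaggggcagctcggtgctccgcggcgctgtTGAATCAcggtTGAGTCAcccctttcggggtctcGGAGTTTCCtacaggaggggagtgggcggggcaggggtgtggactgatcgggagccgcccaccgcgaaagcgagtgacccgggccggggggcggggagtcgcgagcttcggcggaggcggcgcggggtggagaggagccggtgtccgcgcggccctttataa

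The Icam1 window held 1 NF-kB-type match, GGAAATTCC, whose first base lies at position -153 and which reads the same on both strands. The F3 window held 1 NF-kB-type match, GGAGTTTCC, at -112 and the AP-1-type matches TGAATCA at -146 and TGAGTCA at -135. These motifs share no bases in either window. Of 32851 promoters of this length, 4.259% held the NF-kB-type letters and 7.808% the AP-1-type letters. GGGCGG, a GC box, was also searched on both strands and is present in 35.658% of promoters. It occurred at -17 and 24 in Icam1 and at -89, -58 and -24 in F3. In the windows of Cd34, Dpp4, Pdgfra and Pi16 none of the 3 motifs was found. The motifs were chosen after earlier results were known, and a match is a description of letters only.

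All values below are deposited log2 signals, on which a difference of 1 is a doubling. Array medians lay between 7.03 and 7.15, and precision is limited by how many arrays each group has. A gene is said to rise or fall where limma's Benjamini-Hochberg adjusted p over 22180 genes was under 0.05. Differences between groups in a single gene carry standard errors from that fit. Shifts in the difference between 2 markers carry standard errors from the variances of the 2 groups compared. The comparisons share groups of mice, so they are not independent of each other. Adipoq, the adiponectin gene of adipocytes, checked the tissue and fell by 0.28 ± 0.061 in HFD against LFD mice (adjusted p = 0.00193) and was higher by 0.32 in HFD_CR than in HFD mice (adjusted p = 0.00132). Some arrays carried high skeletal muscle transcripts. That list had a mean of 9.02 in HFD_CR mouse 2, 8.10 in HFD mouse 6, and 10.08, 9.01 and 7.98 in LFD mice 2, 3 and 5, against 7.11 to 7.22 in all others. Gland epithelium stood high in HFD mouse 3 (6.60) and LFD mouse 3 (7.06), against 5.49 to 5.75 elsewhere. HFD_CR mouse 2, HFD mouse 3 and LFD mice 2 and 3 are called the 4 muscle or gland arrays below. HFD mouse 6 and LFD mouse 5, where the muscle mean was raised less, are not among them. These 2 stayed in wherever the 4 were left out, and were left out only singly.

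Of the 8 markers, 4 rose in HFD over LFD mice (Pdgfra, Pdgfrb, Icam1 and Fap) and 0 fell, with all 8 differences above 0. For comparison, 16.5% of all genes rose and 11.3% fell. In 3 of the markers (Pdgfra, Icam1 and Fap) the groups did not overlap, as in 14.3% of all genes. In HFD_CR against HFD mice, 1 marker rose (F3) and 3 fell (Pdgfrb, Icam1 and Fap), and across all genes 7.69% rose and 11.3% fell. The groups did not overlap for 2 markers, and for 13.7% of all genes. In HFD_CR against LFD mice, 2 markers rose (Pdgfra and F3) and 0 fell, against 5.8% and 3.28% of all genes. Groups without overlap were 1 of 8 markers and 6.67% of all genes. Without the 4 muscle or gland arrays, 4 markers rose in HFD over LFD mice, 1 rose and 2 fell in HFD_CR against HFD mice, where Pdgfrb no longer passed, and 2 rose in HFD_CR over LFD mice. The median difference of the 8 markers was 0.30 in HFD minus LFD, -0.13 in HFD_CR minus HFD and 0.13 in HFD_CR minus LFD, and that of all genes lay within 0.01 of 0. After centring each array on its median, the split of all genes in HFD against LFD mice was 3076 higher and 3347 lower, in place of 3663 and 2502, and after a further quantile normalization that in HFD_CR against HFD mice was 2306 and 2177, in place of 1705 and 2508.

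**Figure D1:**
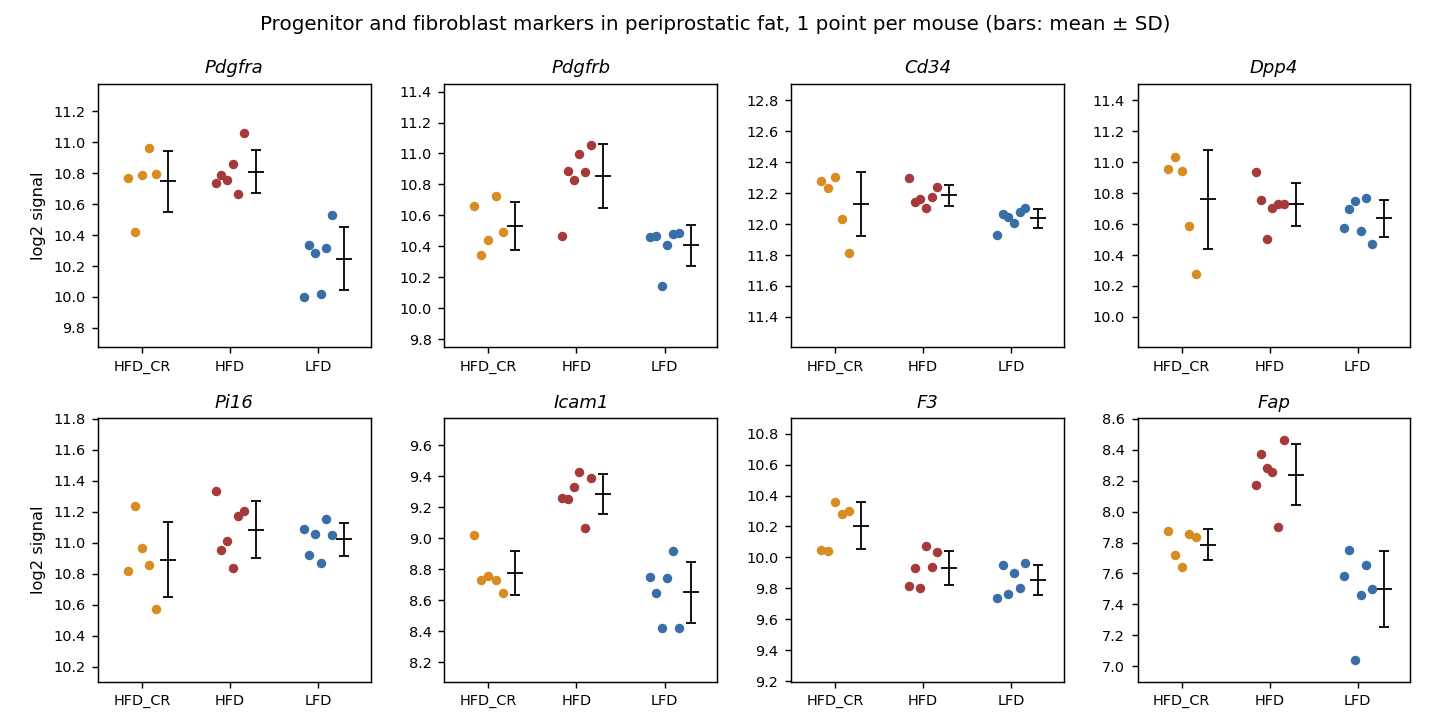
Log2 signal of each measured marker in every mouse, with HFD_CR, HFD and LFD from left to right. Points are mice, bars are means with SD, and each panel spans the same height of log2 units without starting at 0. Icam1 stood high in HFD mice alone, and Fap was highest in HFD mice, with HFD_CR mice between the other groups on average. Pdgfra stood high in HFD_CR and HFD mice, and F3 was highest in HFD_CR mice.

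Both PDGF receptor genes were higher in HFD than in LFD mice, and in HFD_CR against HFD mice Pdgfrb passed as lower while Pdgfra did not pass. Pdgfra, the receptor alpha gene that marks nearly all fibroblasts of fat, measured 10.77, 10.42, 10.79, 10.96 and 10.80 in the 5 HFD_CR mice. HFD mice lay between 10.66 and 11.06 (median 10.77) and LFD mice between 10.00 and 10.53 (median 10.30). Every HFD mouse was above every LFD mouse, and 4 of the 5 HFD_CR mice were too, mouse 2 being the exception. Pdgfra rose by 0.56 ± 0.098 in HFD over LFD mice, which is 1.48-fold (adjusted p = 0.000239). It was also higher by 0.50 ± 0.10 in HFD_CR than in LFD mice (1.41-fold, adjusted p = 0.00449). HFD_CR and HFD mice differed by -0.06, with a 95% confidence interval of -0.28 to 0.15 (adjusted p = 0.758).

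Pdgfrb, the receptor beta gene that marks mural cells as well as fibroblasts, measured 10.66, 10.34, 10.44, 10.73 and 10.49 in HFD_CR mice. HFD mice lay between 10.47 and 11.06 (median 10.89), and LFD mice between 10.14 and 10.48 (median 10.46). HFD mouse 1 lay inside the LFD range and the other 5 HFD mice above it. Pdgfrb rose by 0.45 ± 0.091 in HFD over LFD mice (1.36-fold, adjusted p = 0.00105). It fell by 0.32 on the log2 scale in HFD_CR against HFD mice (SE 0.096, adjusted p = 0.0238). That call was lost without HFD_CR mouse 2, 3 or 5 or HFD mouse 4 or 6 (adjusted p of 0.0707, 0.0637, 0.0545, 0.0511 and 0.0602), without the 4 muscle or gland arrays (0.0726), and after a further quantile normalization (0.0548). The difference was -0.28 in each of the last 2 and between -0.31 and -0.28 in those 5 omissions. HFD_CR exceeded LFD by 0.13, with an interval of -0.08 to 0.33 (adjusted p = 0.494). Of 13 mural cell genes measured, 0 rose and 1 (Myh11) fell in HFD against LFD mice, beside 16.5% and 11.3% of all genes. In HFD_CR against HFD mice 0 passed by limma (0 at an unadjusted p under 0.05), beside 7.69% of all genes that rose and 11.3% that fell. In HFD_CR against LFD mice 0 of the mural cell genes passed by limma (2 at an unadjusted p under 0.05), beside 5.8% and 3.28% of all genes. The mean of that list was 9.35 to 9.46 in HFD_CR, 9.32 to 9.45 in HFD and 9.32 to 9.70 in LFD mice, and 1 of its genes, Higd1b, lay below every array's median. It was highest in LFD mice 2 and 3 (9.70 and 9.61), both among the 4 muscle or gland arrays, whose part in it was not tested. Acta2, a smooth muscle actin counted with the activated fibroblast genes and not here, rose by 0.51 in HFD over LFD mice (adjusted p = 0.00511).

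Whether the receptors moved apart was tested on the difference between their log2 signals within each mouse. Pdgfra minus Pdgfrb was 0.11, 0.07, 0.35, 0.24 and 0.30 in HFD_CR mice, between -0.22 and 0.27 in HFD mice and between -0.46 and 0.14 in LFD mice. All HFD_CR mice were above HFD mice 2 to 6, and HFD mouse 1 lay among them. The shift was 0.26 ± 0.087 in HFD_CR against HFD mice (two-sided exact permutation p = 0.026, adjusted over 15 tests p = 0.0487) and 0.37 ± 0.11 in HFD_CR against LFD mice (exact permutation p = 0.0173, adjusted p = 0.0433). Between HFD and LFD mice it was 0.11 ± 0.12 (exact permutation p = 0.351, adjusted p = 0.438). Of 20 alternatives, 17 and 15 ended the first 2 calls (adjusted p over all 20 between 0.0238 and 0.107, and between 0.0238 and 0.0952). Among omissions of a single mouse, the first call stood only without HFD mouse 1, and the second only without HFD mouse 1, HFD mouse 5 or LFD mouse 3. Leaving out a mouse of the group not compared kept these shifts at 0.26 and 0.37 and changed only the adjustment over 15 tests. The smallest p the design allows is 0.00433 for 5 mice against 6 and 0.00216 for 6 against 6.

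Of the ligands and partners of these receptors, 12 were measured. In HFD over LFD mice 6 rose and 1 fell, where 16.5% of all genes rose and 11.3% fell. In HFD_CR against HFD mice 1 rose and 3 fell (all genes 7.69% and 11.3%), and in HFD_CR over LFD mice 4 rose and 1 fell (5.8% and 3.28%). The 1 that fell in the first comparison and the 1 that rose in the second are near those shares. The median difference was 0.15, -0.04 and 0.12, beside a median of all genes within 0.01 of 0. Pdgfb, the ligand of both receptors, rose by 0.44 ± 0.093 in HFD over LFD mice (adjusted p = 0.00137) and fell by 0.39 in HFD_CR against HFD mice (adjusted p = 0.00873). Plat, which encodes the plasminogen activator that cleaves PDGF-CC, and Lrp1, a receptor that joins PDGF receptor beta, rose by 0.44 and 0.41 in HFD over LFD mice (adjusted p = 3.24e-05 and 1.41e-05) and fell by 0.21 and 0.25 in HFD_CR against HFD mice (adjusted p = 0.0289 and 0.00382). Pik3r1, a regulatory subunit of the phosphoinositide 3-kinase that the receptors recruit, fell by 0.75 in HFD against LFD mice (adjusted p = 2.43e-06) and by 0.54 in HFD_CR against LFD mice (adjusted p = 0.000837). Plcg1, encoding phospholipase C gamma, rose by 0.22 in HFD_CR over HFD mice (adjusted p = 0.00305). Pdgfa, a ligand of receptor alpha, was higher by 0.23 in HFD_CR than in LFD mice (adjusted p = 0.0069), as were Plat by 0.22 (adjusted p = 0.0388) and Nrp1, a co-receptor, by 0.18 (adjusted p = 0.0437). Without the 4 muscle or gland arrays, the 4 that rose in HFD_CR over LFD mice became 1.

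Cd34, a sialomucin of progenitors and of endothelium, passed in no comparison. It measured 12.28, 12.23, 12.30, 12.03 and 11.81 in HFD_CR mice, 12.10 to 12.29 in HFD mice (median 12.17) and 11.93 to 12.10 in LFD mice (median 12.06). HFD mouse 4 lay just below the highest LFD mouse, the other HFD mice lay above all LFD mice, and HFD_CR mice spanned both groups. The difference was 0.15 ± 0.070 in HFD minus LFD (adjusted p = 0.133), -0.05 ± 0.073 in HFD_CR minus HFD (adjusted p = 0.699) and 0.09 ± 0.073 in HFD_CR minus LFD (adjusted p = 0.507). HFD_CR mouse 5 was the lowest of all 17 mice. Without it, HFD minus LFD passed (adjusted p = 0.0403), as it did when only these 2 groups entered the fit (0.0333). Endothelial genes, of which 13 were measured, had 0 that rose and 1 that fell in HFD against LFD mice (all genes 16.5% and 11.3%). In HFD_CR against HFD mice 2 endothelial genes rose and 0 fell (all genes 7.69% and 11.3%). A second probe set that carries the Cd34 symbol together with Gm16897 lay between 6.00 and 6.43 on all arrays, below their medians, and was not used. Podxl, which encodes podocalyxin, a relative of CD34, fell by 0.54 ± 0.089 in HFD against LFD mice (adjusted p = 0.000146) and rose by 0.36 ± 0.093 in HFD_CR over HFD mice (adjusted p = 0.01).

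Of the Ly6 gene family, to which Ly6a belongs, 11 other members were measured. Ly6e, a member present in many tissues, fell by 0.27 ± 0.062 in HFD against LFD mice (adjusted p = 0.00304), where 11.3% of all genes fell, a share near 1 of 11. In HFD_CR against HFD mice 0 members passed by limma (0 at an unadjusted p under 0.05), beside 7.69% of all genes that rose and 11.3% that fell. In HFD_CR against LFD mice 0 members passed by limma (3 at an unadjusted p under 0.05), beside 5.8% and 3.28% of all genes.

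Neither marker of the interstitial progenitors passed in any comparison, the smallest unadjusted limma p being 0.0754. Dpp4, a dipeptidyl peptidase that clips incretins and chemokines, measured 10.96, 11.03, 10.94, 10.59 and 10.28 in HFD_CR mice, 10.50 to 10.93 in HFD mice (median 10.73) and 10.47 to 10.77 in LFD mice (median 10.64). The groups overlapped, and the HFD_CR mice were the most spread (SD 0.32, against 0.14 in HFD and 0.12 in LFD mice), with both the highest and the lowest of all 17 values. The differences were 0.09 ± 0.11 in HFD minus LFD (interval -0.14 to 0.32, adjusted p = 0.607), 0.03 ± 0.11 in HFD_CR minus HFD (interval -0.21 to 0.27, adjusted p = 0.896) and 0.12 ± 0.11 in HFD_CR minus LFD (interval -0.12 to 0.36, adjusted p = 0.587). Mesothelial genes, markers of the lining of abdominal fat depots, also varied among the HFD_CR mice. Their mean over 12 genes was 9.55, 9.26, 9.56, 9.10 and 8.74 in HFD_CR mice, 8.51 to 9.11 in HFD mice and 8.68 to 9.78 in LFD mice. In HFD_CR over HFD mice 6 of the 12 rose and 0 fell (all genes 7.69% and 11.3%), and their part in the Dpp4 spread was not tested.

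Pi16, which encodes a peptidase inhibitor of the same cells, measured 10.82, 11.24, 10.97, 10.86 and 10.57 in HFD_CR mice, 10.83 to 11.33 in HFD mice (median 11.09) and 10.87 to 11.15 in LFD mice (median 11.05). The 3 groups overlapped, and HFD_CR mouse 5 was again the lowest. The difference was 0.06 ± 0.097 in HFD minus LFD (interval -0.14 to 0.27, adjusted p = 0.704), -0.19 ± 0.10 in HFD_CR minus HFD (interval -0.41 to 0.02, adjusted p = 0.224) and -0.13 ± 0.10 in HFD_CR minus LFD (interval -0.35 to 0.08, adjusted p = 0.502). Dpp4 minus Pi16 within a mouse was 0.14, -0.20, -0.02, -0.27 and -0.29 in HFD_CR mice, -0.50 to -0.13 in HFD mice and -0.57 to -0.23 in LFD mice. It was higher by 0.25 ± 0.099 in HFD_CR than in LFD mice (exact permutation p = 0.0216, adjusted p = 0.0464). Of 20 alternatives, 14 ended that call (adjusted p over all 20 between 0.0238 and 0.102). Among omissions of a single mouse, the call stood only without HFD_CR mouse 5, HFD mouse 1, HFD mouse 5 or LFD mouse 2. HFD mice do not enter this comparison, so leaving 1 out kept the shift at 0.25 and changed only the adjustment over 15 tests. The other 2 shifts, 0.23 in HFD_CR minus HFD and 0.03 in HFD minus LFD, did not pass by the exact permutation test (adjusted p = 0.0844 and 0.793).

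The wider list of genes of the Dpp4-marked state, 15 with Dpp4 and Pi16 included, had 3 that rose and 2 that fell in HFD against LFD mice (list median 0.06), shares near the 16.5% and 11.3% of all genes. Sema3c, a secreted guidance cue, and Anxa3, a membrane-binding annexin, rose by 0.43 ± 0.11 and 0.36 ± 0.096 (adjusted p = 0.00549 and 0.00916). Pcsk6, a proprotein convertase, and Bmp7, a bone morphogenetic protein, fell by 0.60 ± 0.065 and 0.38 ± 0.095 (adjusted p = 1.41e-06 and 0.00516). In HFD_CR against HFD mice Pcsk6 rose by 0.41 ± 0.068 (adjusted p = 0.000303) and Wnt2, a Wnt ligand, fell by 0.25 ± 0.083 (adjusted p = 0.0385), the list median was -0.01, and 1 of 15 each way is near or below the 7.69% and 11.3% of all genes. In HFD_CR against LFD mice Bmp7 fell by 0.34 (adjusted p = 0.0362) and Limch1, an actomyosin regulator, rose by 0.20 (adjusted p = 0.0278), with a list median of -0.08. There 5.8% of all genes rose and 3.28% fell.

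Icam1, the adhesion molecule of committed preadipocytes and a ligand of leukocyte integrins, was high in HFD mice and not in the other 2 groups. It measured 9.02, 8.73, 8.75, 8.73 and 8.64 in HFD_CR mice, 9.07 to 9.42 in HFD mice (median 9.29) and 8.42 to 8.92 in LFD mice (median 8.70). Every HFD mouse was above every mouse of the other 2 groups, and the HFD_CR and LFD mice overlapped. Icam1 rose by 0.64 ± 0.087 in HFD over LFD mice (1.55-fold, adjusted p = 2.07e-05) and fell by 0.51 in HFD_CR against HFD mice (SE 0.092, adjusted p = 0.000611). HFD_CR minus LFD was 0.13, with an interval of -0.07 to 0.32 (adjusted p = 0.473).

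Of the ICAM family and its integrins, 7 were measured, and 3 rose in HFD over LFD mice (16.5% of all genes), 3 fell in HFD_CR against HFD mice (11.3% of all genes) and 0 passed in HFD_CR against LFD mice. Besides Icam1 these were Itgb2 and Itgam, which encode the leukocyte integrin chains that bind it. Itgb2 rose by 1.22 ± 0.13 (adjusted p = 8.02e-07) and fell by 0.85 (adjusted p = 0.000178), and Itgam rose by 0.60 ± 0.14 (adjusted p = 0.00308) and fell by 0.59 (adjusted p = 0.00826). Icam4 and Icam5 lay below every array's median. Macrophage genes moved with Icam1: of 12 measured, 11 rose and 0 fell in HFD over LFD mice (all genes 16.5% and 11.3%). In HFD_CR against HFD mice 0 rose and 11 fell (7.69% and 11.3%), and in HFD_CR over LFD mice 4 rose and 0 fell (5.8% and 3.28%). Their mean was 10.50 to 10.85 in HFD_CR, 11.13 to 11.60 in HFD and 10.00 to 10.52 in LFD mice, with none below the array medians. Their part in the Icam1 difference was not tested.

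The list of the Icam1-marked preadipocyte state did not move as a block. Of its 13 measured genes 5 rose and 2 fell in HFD against LFD mice, 2 rose and 3 fell in HFD_CR against HFD mice, and 2 rose and 1 fell in HFD_CR against LFD mice, with list medians of -0.04, 0.03 and 0.02. Among all genes 16.5% rose and 11.3% fell in the first comparison, 7.69% and 11.3% in the second and 5.8% and 3.28% in the third. Col4a2, a basement membrane collagen chain, rose by 0.56 ± 0.093 in HFD over LFD mice (adjusted p = 0.000169) and fell by 0.53 in HFD_CR against HFD mice (adjusted p = 0.000747), where its partner chain Col4a1 fell by 0.44 (adjusted p = 0.000969). Ggt5, a gamma-glutamyl transferase, rose by 0.48 in HFD over LFD mice (adjusted p = 0.000161) and by 0.49 in HFD_CR over LFD mice (adjusted p = 0.00122). Sparcl1, a matrix-associated protein of stroma, was higher by 0.34 in HFD_CR than in LFD mice (adjusted p = 0.00973). Pparg, the main transcription factor of adipocyte formation and also of mature adipocytes, fell by 0.36 ± 0.060 in HFD against LFD mice (adjusted p = 0.000136) and rose by 0.30 ± 0.063 in HFD_CR over HFD mice (adjusted p = 0.00203). Dlk1, the preadipocyte factor, fell by 0.30 in HFD_CR against LFD mice (adjusted p = 0.00126), but lay below every array's median.

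Factors of adipocyte commitment were listed separately, with 17 measured. In HFD against LFD mice 1 rose and 7 fell (all genes 16.5% and 11.3%), and in HFD_CR against HFD mice 6 rose and 1 fell (7.69% and 11.3%). In HFD_CR against LFD mice 2 rose and 3 fell (5.8% and 3.28%). Klf15, Ebf2 and Srebf1, transcription factors of adipocytes and lipid synthesis, fell by 0.84, 0.67 and 0.58 in HFD against LFD mice (adjusted p = 5.91e-05, 5.7e-07 and 0.000197). Ccn5, a secreted Wnt-induced matricellular protein, rose by 1.43 in HFD over LFD mice (adjusted p = 3.76e-06) and by 1.37 in HFD_CR over LFD mice (adjusted p = 0.000108). Klf15, Cebpa and Ebf2 rose by 0.82, 0.40 and 0.38 in HFD_CR over HFD mice (adjusted p = 0.000261, 0.000254 and 0.000751). Adipocyte genes, 11 measured, moved the same way, with 1 that rose and 10 that fell in HFD against LFD mice and 8 that rose and 0 that fell in HFD_CR against HFD mice. Their mean was 12.20 to 12.47 in HFD_CR, 11.89 to 12.22 in HFD and 12.42 to 12.64 in LFD mice, and their part in these lists was not tested.

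F3 was the only marker that passed as higher in HFD_CR mice in both comparisons, with HFD and with LFD mice. It encodes tissue factor, the cell surface receptor that starts blood coagulation. F3 measured 10.05, 10.04, 10.36, 10.28 and 10.30 in HFD_CR mice, 9.80 to 10.08 in HFD mice (median 9.93) and 9.74 to 9.97 in LFD mice (median 9.85). All HFD_CR mice were above all LFD mice, whereas HFD mouse 4 lay above HFD_CR mice 1 and 2. F3 rose by 0.27 ± 0.071 in HFD_CR over HFD mice (1.21-fold, adjusted p = 0.0104) and by 0.35 ± 0.071 in HFD_CR over LFD mice (1.28-fold, adjusted p = 0.004). HFD minus LFD was 0.08 ± 0.068 (interval -0.06 to 0.22, adjusted p = 0.447).

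The 10 measured genes of the CD142-marked state, F3 included, did not all move as F3 did. In HFD_CR over LFD mice 6 rose and 0 fell (list median 0.35, all genes within 0.01 of 0), and of all genes 5.8% rose and 3.28% fell. Cygb, a stromal globin, rose by 0.73 ± 0.081 (adjusted p = 2.5e-05), Inmt, a methyltransferase of stromal cells, by 0.60 ± 0.12 (adjusted p = 0.00319), Fmo2, a flavin monooxygenase, by 0.52 ± 0.14 (adjusted p = 0.0216) and Gdf10, a secreted factor of the TGF-beta family, by 0.43 ± 0.070 (adjusted p = 0.000704). In HFD_CR against HFD mice 4 rose and 3 fell (list median 0.21), beside 7.69% and 11.3% of all genes. Inmt and Fmo2 rose there by 0.87 and 0.58 (adjusted p = 4.69e-05 and 0.00528), whereas Mgp, a matrix protein that binds calcium, and Clec11a, a secreted lectin, fell by 0.62 and 0.59 (adjusted p = 0.00496 and 0.00112). In HFD over LFD mice 4 rose and 0 fell (list median 0.13), beside 16.5% and 11.3% of all genes. Mgp rose by 0.97, Cygb by 0.73, Bgn, a matrix proteoglycan, by 0.66 and Clec11a by 0.52 (adjusted p = 2.87e-05, 1.05e-06, 2.42e-06 and 0.00115). Cygb differed by -0.01 between HFD_CR and HFD mice (adjusted p = 0.98).

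The partners of tissue factor in coagulation numbered 9 with F3, of which 4 rose and 1 fell in HFD against LFD mice, 2 rose and 2 fell in HFD_CR against HFD mice and 3 rose and 1 fell in HFD_CR against LFD mice. The shares of all genes that rose and fell were 16.5% and 11.3%, 7.69% and 11.3%, and 5.8% and 3.28%. The 1 of 9 that fell in HFD against LFD mice is near its share. F7, the factor VII that tissue factor binds, rose by 1.44 ± 0.12 in HFD over LFD mice (adjusted p = 5.9e-08) and fell by 1.09 in HFD_CR against HFD mice (adjusted p = 1.21e-05). Tfpi2, a protease inhibitor related to the tissue factor pathway inhibitor, rose by 1.47 in HFD over LFD mice and by 0.87 in HFD_CR over LFD mice, and fell by 0.60 in HFD_CR against HFD mice (adjusted p = 3.51e-07, 0.00103 and 0.00747). Thbd, the thrombomodulin of endothelium, fell by 1.19 in HFD against LFD mice and by 0.68 in HFD_CR against LFD mice, and rose by 0.52 in HFD_CR over HFD mice (adjusted p = 1.87e-08, 0.000111 and 0.000399). F2r, a thrombin receptor, rose by 0.69 in HFD over LFD mice and by 0.44 in HFD_CR over LFD mice (adjusted p = 6.03e-06 and 0.00413).

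**Figure D2:**
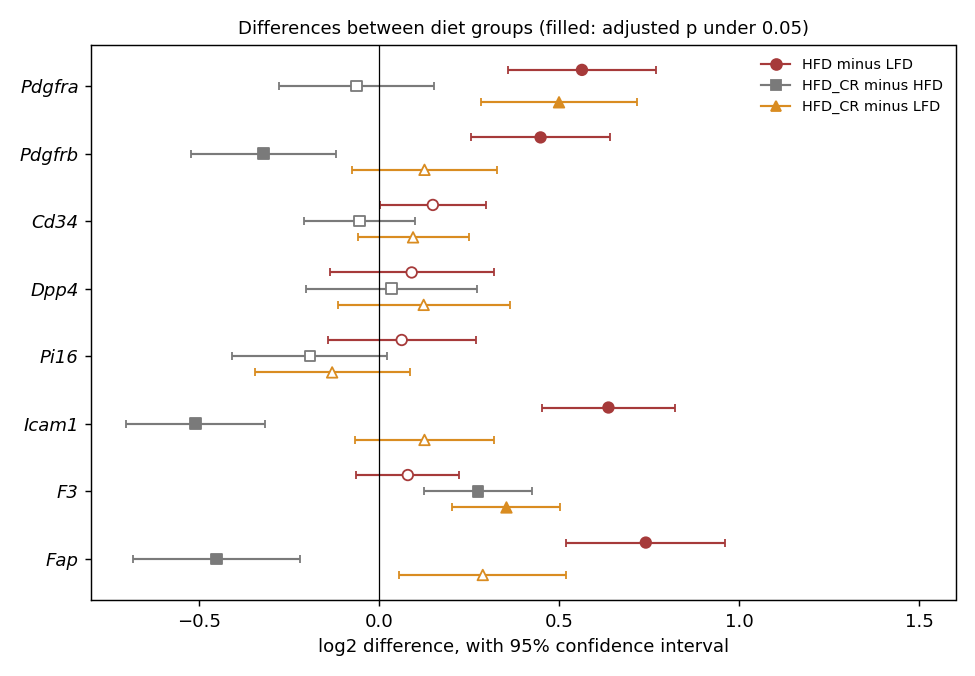
Log2 difference of each marker in the 3 comparisons, with its 95% confidence interval, each comparison with its own colour and marker shape. Filled points passed an adjusted p of 0.05. Icam1, Fap and Pdgfrb lie right of 0 in HFD minus LFD and left of 0 in HFD_CR minus HFD, Pdgfra stays right of 0 in both comparisons with LFD, and F3 is right of 0 in both comparisons of HFD_CR.

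Fap, the fibroblast activation protease, had the largest rise of the 8 markers in HFD over LFD mice. It measured 7.88, 7.72, 7.64, 7.86 and 7.84 in HFD_CR mice, 7.90 to 8.46 in HFD mice (median 8.27) and 7.04 to 7.75 in LFD mice (median 7.54). All HFD mice were above all mice of the other 2 groups, the lowest HFD mouse by a small margin, and the HFD_CR and LFD ranges overlapped. Fap rose by 0.74 ± 0.10 in HFD over LFD mice (1.67-fold, adjusted p = 2.97e-05) and fell by 0.45 in HFD_CR against HFD mice (SE 0.11, adjusted p = 0.00664). HFD_CR minus LFD was 0.29 ± 0.11, with an interval of 0.06 to 0.52, and did not pass (adjusted p = 0.125). The mean signal of Fap over all mice, 7.84, lay little above the array medians.

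The list of activated fibroblast genes, 12 with Fap, had 11 that rose and 0 that fell in HFD over LFD mice (list median 0.77), 0 that rose and 6 that fell in HFD_CR against HFD mice (median -0.33), and 4 that rose and 0 that fell in HFD_CR over LFD mice (median 0.28). Across all genes 16.5%, 7.69% and 5.8% rose and 11.3%, 11.3% and 3.28% fell in these comparisons. Timp1, an inhibitor of matrix proteases, and Adam12, a surface metalloprotease, rose by 2.87 and 0.88 in HFD over LFD mice (adjusted p = 2.43e-08 and 1.97e-08) and fell by 2.27 and 0.94 in HFD_CR against HFD mice (adjusted p = 6.47e-06 and 4.61e-07). Thbs2 and Tnc, both matricellular proteins, rose by 1.65 and 1.13 in HFD over LFD mice (adjusted p = 3.42e-08 and 2.44e-06). They were higher by 1.36 and 0.78 in HFD_CR than in LFD mice (adjusted p = 8.61e-06 and 0.00113), as were Ccn2, a matricellular protein induced by TGF-beta, by 0.69 and Lox, which crosslinks collagen, by 0.53 (adjusted p = 0.00284 and 0.00185). Of the 15 measured genes of fibroblasts in general, 10 rose and 0 fell in HFD over LFD mice, 1 rose and 7 fell in HFD_CR against HFD mice and 4 rose and 0 fell in HFD_CR over LFD mice. Of 9 genes of fibro-inflammatory progenitors, 5, 0 and 2 rose and 0, 3 and 0 fell in these comparisons. Cell division genes, 11 measured, all rose in HFD over LFD mice and all fell in HFD_CR against HFD mice, and 1 rose in HFD_CR over LFD mice. The part of dividing cells and of macrophages in the Fap difference was not tested.

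Dpp4 and Fap are members of the same protease family, and their genes lie on chromosome 2 with 1 protein-coding gene, Gcg, between them. Of 8 measured family members, 4 rose and 0 fell in HFD over LFD mice (all genes 16.5% and 11.3%), and 0 rose and 4 fell in HFD_CR against HFD mice (7.69% and 11.3%). In HFD_CR against LFD mice 1 rose and 1 fell (5.8% and 3.28%). Dpp7, a lysosomal dipeptidyl peptidase, rose by 0.61 ± 0.073 in HFD over LFD mice and by 0.39 in HFD_CR over LFD mice, and fell by 0.22 in HFD_CR against HFD mice (adjusted p = 4.32e-06, 0.00334 and 0.0489). Prep, a cytosolic prolyl peptidase, rose by 0.24 in HFD over LFD mice and fell by 0.19 in HFD_CR against HFD mice (adjusted p = 0.00467 and 0.0393). Dpp9, a cytosolic dipeptidyl peptidase, fell by 0.22 in HFD_CR against HFD mice and by 0.18 in HFD_CR against LFD mice (adjusted p = 0.00551 and 0.0342). Without the 4 muscle or gland arrays, the 4 that fell in HFD_CR against HFD mice became 2. Fap minus Dpp4 was -3.08, -3.31, -3.30, -2.73 and -2.44 in HFD_CR mice, between -2.83 and -2.23 in HFD mice and between -3.71 and -2.94 in LFD mice. HFD mice were all above LFD mice, and HFD_CR mice overlapped both. The shift was 0.65 ± 0.16 in HFD over LFD mice (exact permutation p = 0.00216, the smallest possible, adjusted p = 0.0108) and -0.49 ± 0.20 in HFD_CR against HFD mice (exact permutation p = 0.0476, adjusted p = 0.0794).

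Icam1, which endothelium and leukocytes also use, was set against Dpp4 and F3 in the same way. These are differences between single genes and do not measure the cell states. Icam1 minus Dpp4 was -1.94, -2.30, -2.19, -1.86 and -1.64 in HFD_CR mice, between -1.68 and -1.18 in HFD mice and between -2.33 and -1.81 in LFD mice. HFD mice were above all LFD mice, and HFD_CR mouse 5 alone reached into the HFD range. The shift was 0.55 ± 0.12 in HFD over LFD mice (exact permutation p = 0.00216, adjusted p = 0.0108), -0.54 ± 0.15 in HFD_CR against HFD mice (exact permutation p = 0.013, adjusted p = 0.039) and 0.0023 ± 0.14 in HFD_CR against LFD mice (exact permutation p = 0.991, adjusted p = 0.991). The call in HFD_CR against HFD mice was lost in 9 of 20 alternatives, among them without HFD_CR mouse 1, 2, 3 or 4 or HFD mouse 2, 3, 4 or 6 (adjusted p between 0.051 and 0.0857).

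Icam1 minus F3 was -1.03, -1.31, -1.61, -1.55 and -1.66 in HFD_CR mice, between -0.87 and -0.47 in HFD mice and between -1.54 and -0.89 in LFD mice. HFD mice were above all mice of both other groups. The shift was 0.56 ± 0.11 in HFD over LFD mice (exact permutation p = 0.00216, adjusted p = 0.0108), -0.78 ± 0.13 in HFD_CR against HFD mice (exact permutation p = 0.00433, adjusted p = 0.0162) and -0.23 ± 0.15 in HFD_CR against LFD mice (exact permutation p = 0.16, adjusted p = 0.218). The levels of 2 probe sets cannot be compared, so only the shift between groups is read. Without the 4 muscle or gland arrays, which leaves groups of 4, 5 and 4 mice, no pair difference passed after adjustment (smallest adjusted p = 0.0595). The shifts kept their direction in the pairs and comparisons that had passed: Icam1 minus F3 in HFD_CR minus HFD was -0.78, Fap minus Dpp4 in HFD minus LFD 0.50 and Icam1 minus Dpp4 in HFD minus LFD 0.39, and the smallest p that exact permutation of 4 mice against 5 allows is 0.0159 (0.0286 for 4 against 4).

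**Figure D3:**
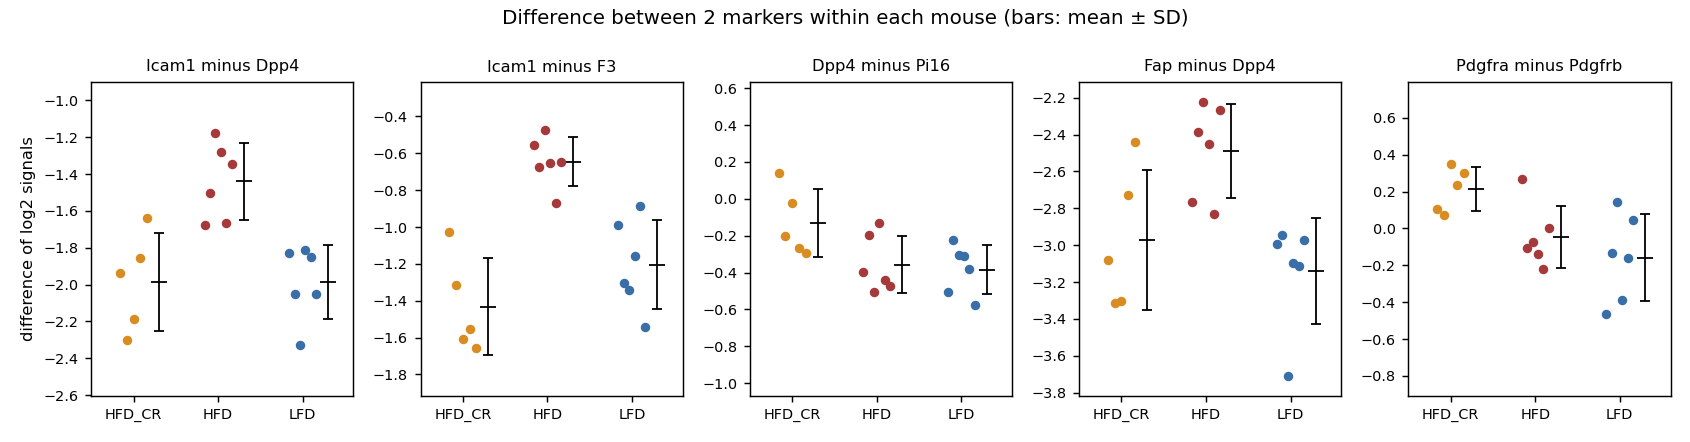
Difference between the log2 signals of 2 markers within each mouse, for 5 pairs, with HFD_CR, HFD and LFD from left to right. Points are mice and bars are means with SD. For Icam1 minus F3 all HFD mice lie above both other groups, and for Pdgfra minus Pdgfrb the HFD_CR mice lie highest on average.

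**Figure D4:**
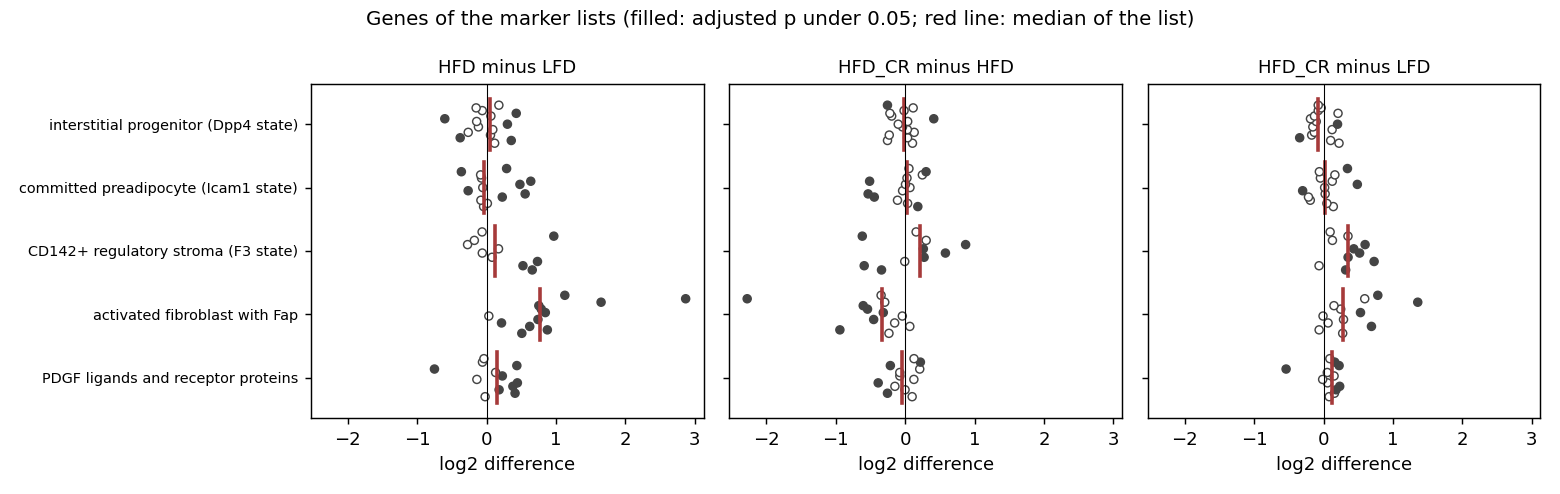
Log2 differences of the genes of 5 lists in the 3 comparisons. Each point is a gene, filled where it passed an adjusted p of 0.05, and the red line is the median of the list. The activated fibroblast genes lie right of 0 in HFD minus LFD, with Timp1 farthest out at 2.87, and the lists of the Dpp4-marked and Icam1-marked states have medians near 0 in all 3 comparisons.

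The variation between mice of the same diet group was described by correlations. Deviations from the group means were correlated over all 17 mice for 28 pairs of markers, which share arrays, normalization and tissue. Dpp4 and Cd34 had the highest coefficient (Pearson's r = 0.83, permutation p = 0.00678, adjusted p = 0.116, Spearman's rho = 0.75, permutation p = 0.00852, adjusted p = 0.0795). With HFD_CR mice 2 and 5 left out, the 2 farthest from the median in Dpp4, r was 0.67. Dpp4 with Pi16 had r = 0.67 (0.38 without the same 2 mice) and Pi16 with Cd34 r = 0.65 (0.45 without them). Icam1 with Fap had r = 0.61 (0.60 without the 2 mice farthest in Icam1). Pdgfra with F3 had r = 0.59 (0.41 without the 2 farthest in Pdgfra) and Pdgfrb with Fap r = 0.58 (0.45 without the 2 farthest in Pdgfrb). The mice left out were chosen by the first-named marker only, so mice outlying in the second could remain. None of the 28 passed after adjustment, the smallest adjusted p being 0.116 for r and 0.0694 for rho.

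**Figure D5:**
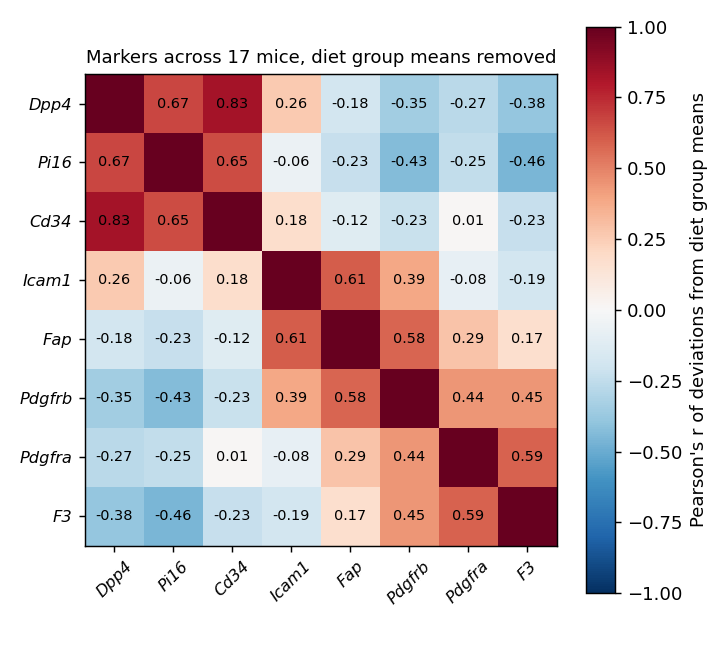
Pearson's r between the markers' deviations from their diet group means over 17 mice, by colour and number. Dpp4, Pi16 and Cd34 form a square of values between 0.65 and 0.83, and Icam1 with Fap reaches 0.61.

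Among 17097 genes with a settled name, the genes whose deviations were most like a marker's over the 17 mice are given with r, as a description. Dpp4 was closest to Prss23 (0.92), Dact1 (0.89) and Arhgap20 (0.84), and Cd34 to Adgrd1 (0.92), Prss23 (0.91) and Arhgap20 (0.90). Pi16 was closest to Fndc1 (0.88), Plat (0.86) and Dact2 (0.86). Pdgfrb was closest to Tpra1 (0.92), Elk3 (0.91) and Lrp1 (0.89), Icam1 to Trdmt1 (0.87), Irf8 (0.87) and Rhbdf2 (0.86), and Fap to Snx9 (0.89), Nptn (0.88) and Trpv2 (0.88). Pdgfra was closest to Pcdhb14 (0.83), Iqcm (0.82) and Stab1 (0.82), and F3 to Defa33 (0.81), Pcdhb21 (0.77) and Dab2ip (0.77). The values for F3 were the lowest of the 8. Irf8 is a transcription factor of myeloid cells and Stab1 a scavenger receptor of macrophages.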

How the data were processed

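The authors deposited log2 values per probe set of 17 arrays, 1 per mouse. R 3.5.0, RMA and limma are named, with no role or order, per the submitters' processing notes, and no genome build is named in the sources used here. The 17 mice are separate animals per the labels. Of 33793 probe sets 23521 carried exactly 1 gene symbol, and the probe set with the highest mean stood for a gene, which left 22180 genes, with no filter or rescaling. Group means were fitted to the 17 arrays together by lmFit and eBayes of limma 3.58.1 (R 4.3.3), with Benjamini-Hochberg adjustment over all genes. Differences between 2 markers within a mouse were compared by exact two-sided permutation over mice, 15 tests in all (Python 3.11.15, scipy 1.17.1), and correlations by 100000 permutations within groups, the correlation test being added after the data were seen. The limma fit, but not the permutation tests, was tried on simulated data with independent noise in each gene. Of 200 genes changed by 0.25 it recovered 34% in HFD minus LFD, 21% in HFD_CR minus HFD and 23% in HFD_CR minus LFD. Of 200 changed by 0.5 it recovered 88.5%, 84.5% and 89.5%. The markers, lists, pairs and alternatives were chosen with earlier results of these data known. Named genes are all markers, the 3 genes most like each, and, from the lists described gene by gene, up to 4 per comparison that passed with the largest difference. Lists of other cell types, of fibroblasts in general, of fibro-inflammatory progenitors and of cell division are given mostly as counts or means. Adipoq, Acta2 and some genes below the array medians were named outside this rule. Of 275 list entries, 15 had no probe set. Mouse numbers were checked and treated as names only. Figures were drawn with matplotlib 3.10.9.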

Additional observations from a re-analysis of the deposited data

Results flagged for a closer look

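In the LFD group Pdgfrb of mouse 3 stood apart, at 10.145, below the other LFD mice, which lay between 10.407 and 10.484. Its gap to the nearest mouse was 0.771 of the range of the group. Each of 8 markers was examined in 3 groups, 24 in all, and chance alone marks about 1 in 20 such groups. LFD mouse 3 is among the arrays with muscle and gland transcripts, and their part in this value was not tested.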

How the results depend on the processing

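Of 1020 single values recomputed, 923 kept their direction and their side of the threshold, 76 no longer passed, 2 passed anew and 19 changed sign. Icam1, Fap, Pdgfra and Pdgfrb in HFD against LFD mice, Icam1 and Fap in HFD_CR against HFD mice, and Pdgfra and F3 in HFD_CR against LFD mice passed in all alternatives except, for some, a required 1.5-fold difference. With that requirement the number of markers that rose was 2 in HFD over LFD mice, 0 in HFD_CR over HFD mice and 0 in HFD_CR over LFD mice, and 0 fell in HFD_CR against HFD mice. At an adjusted p under 0.01, 0 rose in HFD_CR over HFD mice, since F3 was at 0.0104. Signs changed only for differences that did not pass. Dpp4 in HFD_CR minus HFD was -0.016, -0.035, -0.012 and -0.011 without HFD_CR mice 1, 2 and 3 and HFD mouse 3, within a range of -0.035 to 0.15 over single mice, and -0.080 without the 4 muscle or gland arrays, where Pdgfra was 0.0073. Over single mice left out, Pdgfra ran from -0.12 to 0.018 (without HFD_CR mouse 2) and Cd34 from -0.097 to 0.025 (without HFD_CR mouse 5). Icam1 minus Dpp4 in HFD_CR minus LFD ran from -0.085 to 0.082 on leaving out single mice and was -0.0057 after quantile normalization and -0.019 without those 4 arrays; Dpp4 minus Pi16 in HFD minus LFD ran from -0.018 to 0.060 on leaving out single mice. The cause was not tested. The correlation of the deviations of same-numbered mice lay between -0.11 and 0.41. In 4 of 16 checks over the 3 comparisons a mouse correlated best with its own number, each HFD_CR mouse being checked in both comparisons of its group. With the mouse number as a replicate block, 3620 genes rose and 2436 fell in HFD against LFD mice, 1616 and 2394 in HFD_CR against HFD mice, and 1144 and 629 in HFD_CR against LFD mice, and no call of a marker changed. Counts over all genes varied more than 1.5 times under stricter rules: with a 1.5-fold difference they were 830 and 302, 190 and 504, and 206 and 98, and at an adjusted p under 0.01 the lower count of HFD against LFD mice was 1541 and the counts of the others 965 and 1610, and 615 and 352. Testing every probe set gave 3805 lower in HFD than in LFD mice, and array weights 2630 higher in HFD_CR than in HFD mice. A planned pair of Cd34 and Ly6a was not run, since Ly6a was not measured. Signals near the array medians, as of Fap, may understate differences.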
